A study of Mus musculus with 4 samples.

Results

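The Egr, Nr4a and Ier immediate-early genes considered here are Egr1, Egr2, Egr3, Nr4a1, Nr4a2, Nr4a3, Ier2, Ier3 and Ier5. They were chosen by symbol, and all 9 were found among the 23990 gene symbols of the deposited tables. The study sorted effector CD4 cells (CD44+CD4) at the onset of EAE, a mouse model of multiple sclerosis in which immunization with the myelin peptide MOG brings CD4 cells into the spinal cord. RNA came from 2 spinal cord (CNS) libraries and 2 libraries of pooled draining lymph node (dLN) cells. All mice were wild type C57BL/6 (C57BL/6J in the study's methods) given MOG in complete Freund's adjuvant followed by pertussis toxin. Age and sex of the mice are not given in the sources used here. The study's methods state that the sorted cells of both tissues were stimulated for some hours with PMA and ionomycin before RNA was purified, whereas the sample labels speak of fresh sorting and name no stimulation. Values are FPKM, a fragment count divided by transcript length and by the mapped fragments of its library, summed over the transcripts of a gene.

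Immediate-early genes are transcribed within minutes of a stimulus, without new protein synthesis, from promoters that are bound by factors already present in the cell. In T cells the antigen receptor drives them through calcium and calcineurin and through protein kinase C, Ras and ERK. PMA enters the latter pathway at protein kinase C and ionomycin raises calcium. The Egr proteins are zinc-finger transcription factors, of which Egr2 and Egr3 are known to restrain T-cell activation and Egr1 is induced by many stimuli through serum response factor. The Nr4a proteins are orphan nuclear receptors that bind DNA without a known natural ligand, and they mark recent antigen receptor signalling and take part in tolerance, exhaustion and regulatory T-cell development. Ier2 and Ier5 are related small nuclear proteins, Ier5 being a partner of heat shock factor 1, whereas Ier3 (IEX-1) is an unrelated regulator of survival that shares only the name.

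The genes lie apart in the mouse genome (mm10), and no other GENCODE M21 gene overlaps the deposited transcripts of any of the 9 on either strand. Chromosome 10 holds Egr2 (Entrez 13654) from 67537869 to 67542188 and chromosome 14 holds Egr3 (Entrez 13655) from 70077445 to 70082613, and Egr1 has the Entrez number 13653. Nr4a1 (15370) lies on chromosome 15 from 101266846 to 101274794, Nr4a2 (18227) on chromosome 2 from 57107226 to 57124003 and Nr4a3 (18124) on chromosome 4 from 48051248 to 48083352. Ier2 (15936) lies on chromosome 8 from 84661331 to 84662852, Ier3 (15937) on chromosome 17 from 35821713 to 35822911 and Ier5 (15939) on chromosome 1 from 155096367 to 155099636. Compact gene structure is shared by several of them, since Ier2 and Ier5 have 1 exon and Egr2, Egr3 and Ier3 have 2, while 6.52% of the tested genes with a matched GENCODE transcript have 2 exons or fewer. Nr4a1 has 7 exons, and Nr4a2 and Nr4a3 have 8. ATTTA, the core of the AU-rich elements of short-lived mRNAs, occurs 7 times in the 3′ UTR of Egr3, 5 times in those of Nr4a3 and Ier3, 3 times in those of Egr2, Nr4a1 and Nr4a2, 2 times in those of Egr1 and Ier5 and 0 times in that of Ier2. The median over 9803 tested genes was 1, and 36.0% had 3 or more.

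Promoter sequence was available in the RefSeq table (GRCm38.p6) for Egr2, Nr4a1, Nr4a2, Nr4a3, Ier3 and Ier5. Egr1, Egr3 and Ier2 had no entry and were not searched. For the genes with an entry, 250 bases before a transcript start were searched on both strands for 6 motifs. These were the cAMP response element (CRE) core TGACG, the full CRE TGACGTCA, which holds that core on each strand and counts as 2 of them, the CArG box bound by serum response factor, the Egr site GCGNGGGCG, the Nr4a monomer site (NBRE) AAAGGTCA and the AP-1 site TGANTCA. Shown are the 3 Nr4a genes and Egr2, which were called lower in CNS, and Ier5, which did not pass the test. A link between motifs and the tissue difference was not tested. The sequences are given on the strand of the gene from 5′ to 3′, with the CRE core and the CArG box in capitals. They are Nr4a1 at chr15:101266596-101266845 (+), Nr4a2 at chr2:57124004-57124253 (−), Nr4a3 at chr4:48045055-48045304 (+), Egr2 at chr10:67537619-67537868 (+) and Ier5 at chr1:155099637-155099886 (−).
Nr4a1: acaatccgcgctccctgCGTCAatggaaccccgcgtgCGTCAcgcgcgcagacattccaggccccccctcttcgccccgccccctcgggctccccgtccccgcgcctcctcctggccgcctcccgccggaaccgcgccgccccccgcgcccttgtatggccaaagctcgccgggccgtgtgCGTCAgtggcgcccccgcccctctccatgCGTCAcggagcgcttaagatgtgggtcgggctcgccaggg
Nr4a2: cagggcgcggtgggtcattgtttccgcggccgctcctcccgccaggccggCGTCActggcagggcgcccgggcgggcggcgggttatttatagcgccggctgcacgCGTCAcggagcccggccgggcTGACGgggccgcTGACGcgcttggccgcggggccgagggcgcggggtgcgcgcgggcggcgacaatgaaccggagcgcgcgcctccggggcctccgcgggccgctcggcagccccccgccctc
Nr4a3: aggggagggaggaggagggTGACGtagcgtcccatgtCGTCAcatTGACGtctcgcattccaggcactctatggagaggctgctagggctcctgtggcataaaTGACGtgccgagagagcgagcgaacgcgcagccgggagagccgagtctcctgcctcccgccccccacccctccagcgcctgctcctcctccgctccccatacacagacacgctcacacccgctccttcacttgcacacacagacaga
Egr2: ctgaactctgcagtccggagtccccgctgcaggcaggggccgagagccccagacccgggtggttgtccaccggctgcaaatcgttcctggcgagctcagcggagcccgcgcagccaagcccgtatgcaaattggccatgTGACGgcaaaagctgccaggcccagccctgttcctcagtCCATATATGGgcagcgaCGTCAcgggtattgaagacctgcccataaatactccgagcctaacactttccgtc
Ier5: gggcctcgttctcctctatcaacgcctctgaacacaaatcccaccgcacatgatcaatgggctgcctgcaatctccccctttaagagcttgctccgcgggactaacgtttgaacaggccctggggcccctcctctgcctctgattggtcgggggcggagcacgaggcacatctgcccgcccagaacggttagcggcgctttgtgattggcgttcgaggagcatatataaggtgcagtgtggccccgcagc

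Each of the 3 Nr4a sequences held 4 CRE cores, a number reached by 45 of 32851 promoter entries (0.137%). Egr2 had 5 promoter entries. The one shown held 2 CRE cores and a CArG box, 72 bases before the start. The entry with its start at 67535499 held neither, and that with its start at 67537566 held a CArG box but no CRE core. At least 1 CRE core occurred in 17.8% of all entries and a CArG box in 1.47%. Ier5 and Ier3 held none of the 6 motifs. Nr4a1 and Nr4a2 each also held 1 Egr site, which 4.7% of entries have, and none of the 6 held a full CRE (1.55% of entries), an NBRE (1.34%) or an AP-1 site (6.75%). The sequences of Egr2, Nr4a1, Ier3 and Ier5 end at the start of the deposited transcript. That of Nr4a2 ends at the start of NM_001139509, the deposited transcript with the upstream start, which carried at most 14.1% of the FPKM of the gene, and that of Nr4a3 to a start upstream of its deposited transcript. Such matches describe these windows and do not show that a factor was bound.

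**Figure D1:**
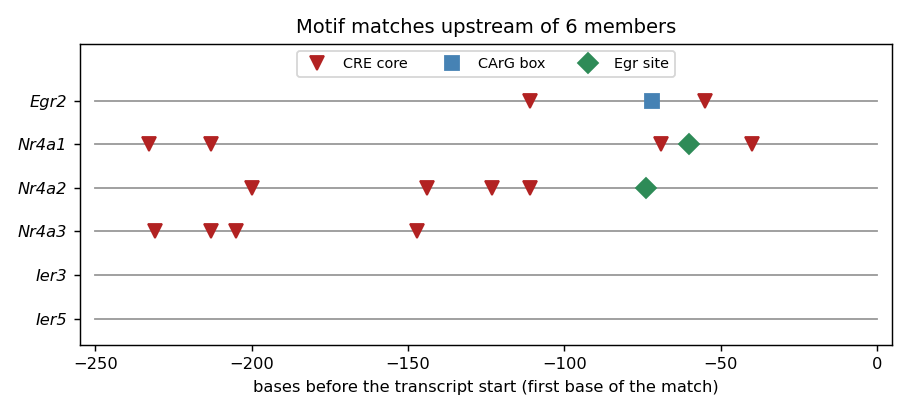
Motif matches in the 250 bases before the transcript start of 6 genes. The horizontal axis gives bases before the start, each line is a gene and each symbol the first base of a match, with 4 CRE cores on each Nr4a line, 2 on the Egr2 line and no symbol on the Ier3 and Ier5 lines.

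Low FPKM values fell on whole numbers of fragments (within 0.05 fragments) in 90.6% to 93.4% of cases, which put the depth at 18.4 M to 21.9 M fragments per library. Chance gives 10% at a fixed setting, whereas the depth and a length correction were here chosen for the highest share. The 9 genes then rested on 236 to 45545 fragments per library. All 6 CD4 T-cell markers were read in both tissues, with a summed level of 2143 to 2157 FPKM in CNS and 541 to 622 FPKM in dLN. Markers of CD8 T cells, NK cells and B cells summed to at most 5.40 FPKM in any library, those of endothelial cells to 26.1 FPKM and those of neural cells to 58.0 FPKM, nearly all of it Mbp. Of 14 myeloid markers 13 were found, and they summed to 27.9 FPKM in CNS replicate 1, 440 FPKM in CNS replicate 2 and 4.12 to 4.55 FPKM in dLN, where 8 of them, among them Csf1r, C1qa and S100a8, were listed at 0. Y-linked Ddx3y was read in the CNS libraries (11.2 and 12.7 FPKM) and X-linked Xist in the dLN libraries (22.3 and 26.6 FPKM), so tissue and the sex of the mice cannot be told apart. The 2 tissues also come from separate tables. Nothing states that the 2 libraries of a tissue came from separate mice, and p-values measure the spread between these libraries, which may be technical. In bulk RNA, fewer expressing cells and less RNA per cell cannot be told apart.

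Between the tissues, 5 of the 9 genes were lower in the CNS libraries of effector CD4 cells, 1 was higher and 3 did not pass the test. Egr2, Egr3, Nr4a1, Nr4a2 and Nr4a3 fell, Ier2 rose, and Egr1, Ier3 and Ier5 did not pass. The test was limma on log2(FPKM + 1) over the 10634 genes whose mean reached 1 FPKM in either tissue, and a gene was called at a Benjamini-Hochberg adjusted p under 0.05. Of all tested genes 74.9% were called, 37.2% lower and 37.8% higher in CNS, so 6 calls among 9 genes are near the background. When a change of 2-fold or more was required as well, 5 of the 9 were called, all of them lower, against 39.2% of all genes, 18.2% lower and 21.0% higher. The libraries of the tissues did not overlap for 7 of the 9 genes, where this held for 89.4% of all genes. The median log2 ratio of the 9 genes was -1.03, beside 0.05 over all tested genes. Log2 ratios are CNS over dLN on the log2(FPKM + 1) scale.

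**Figure D2:**
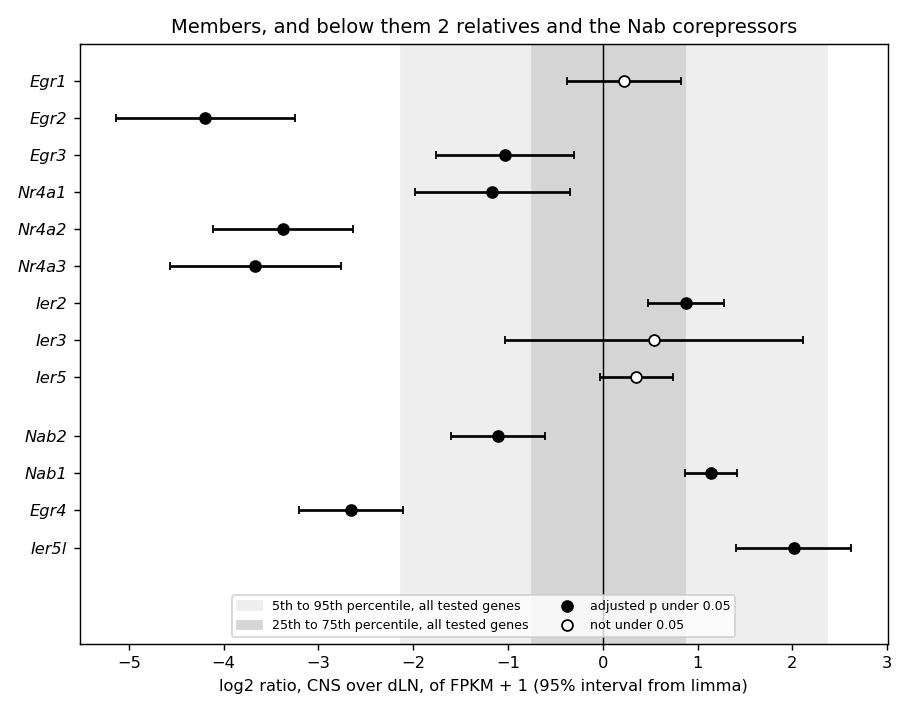
Log2 ratios (CNS over dLN, FPKM + 1) of the 9 genes, and below them of Egr4, Ier5l and the Nab corepressors, with 95% intervals from limma. Filled points had an adjusted p under 0.05, and the shaded bands give the middle of the ratios of all 10634 tested genes. Egr2, Nr4a2 and Nr4a3 lie left of the 5th percentile (-2.13).

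Egr2 changed most among the 9. The CNS libraries read 9.52 and 20.8 FPKM and the dLN libraries 249 and 305 FPKM. Egr2 averaged 15.2 FPKM in CNS (SD 7.99, n = 2) against 277 FPKM in dLN (SD 39.7, n = 2), an 18.3-fold difference. Both CNS libraries lay far below both dLN libraries, and its ratio (log2 -4.19 with standard error 0.36, limma adjusted p = 0.000464) was below that of all but 0.423% of tested genes. Egr3, which acts beside Egr2 in T cells, read 9.86 and 16.3 FPKM in CNS against 22.7 and 32.2 FPKM in dLN. The tissues did not overlap for Egr3, but the gap between the higher CNS library and the lower dLN library was smaller than the distance between the dLN libraries. Its ratio was -1.03 on the log2 scale (standard error 0.28, limma adjusted p = 0.0225), and the call was lost without CNS replicate 1 (-0.70, adjusted p = 0.118) or without dLN replicate 2 (-0.79, adjusted p = 0.108). Egr1 read 83.1 and 123 FPKM in CNS against 75.7 and 98.5 FPKM in dLN. The Egr1 libraries of the tissues overlapped, and its log2 ratio of 0.22 did not pass the test (limma adjusted p = 0.41, 95% interval -0.37 to 0.82). Without CNS replicate 2 the Egr1 ratio was -0.055. Egr2 and Egr1 therefore stood in opposite order in the tissues, with Egr1 5.90- to 8.73-fold above Egr2 in CNS and Egr2 3.10- to 3.29-fold above Egr1 in dLN.

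Egr3 has 3 deposited transcripts. The transcript NM_018781 carried 74.5% and 76.3% of the Egr3 FPKM in the CNS libraries and 88.6% and 84.6% in the dLN libraries. NM_001289925, which starts and ends at the same positions, carried most of the rest and was at 2.51 and 3.87 FPKM in CNS and at 2.58 and 4.19 FPKM in dLN. The second transcript was thus at like levels in both tissues, while the first was at 7.35 and 12.4 FPKM in CNS and at 20.1 and 27.3 FPKM in dLN. The split between such overlapping transcripts is an estimate by the authors' software.

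All 3 Nr4a genes were lower in CNS. Nr4a1, the best known reporter of antigen receptor signalling, was the highest of the 9 genes in every library, with 256 and 457 FPKM in CNS against 652 and 906 FPKM in dLN. Nr4a1 averaged 357 FPKM in CNS (SD 142, n = 2) against 779 FPKM in dLN (SD 179.7, n = 2). Each CNS library lay below each dLN library, by 2.18-fold on the means (log2 ratio -1.16 with standard error 0.32, limma adjusted p = 0.0225). The Nr4a1 call was lost without CNS replicate 1 (-0.75, adjusted p = 0.0947) or without dLN replicate 2 (-0.93, adjusted p = 0.111).

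Nr4a3 read 26.1 and 52.4 FPKM in CNS against 424 and 549 FPKM in dLN. Its dLN average of 486 FPKM (SD 88.4, n = 2) was 12.4-fold above the CNS average of 39.3 FPKM (SD 18.6, n = 2). The tissues were far apart (log2 ratio -3.67 with standard error 0.35, limma adjusted p = 0.000608). Nr4a2 read 6.59 and 11.2 FPKM in CNS against 82.8 and 117 FPKM in dLN, again with no overlap. Its averages of 8.89 FPKM (SD 3.26, n = 2) and 99.97 FPKM (SD 24.2, n = 2) differed by 11.2-fold (log2 ratio -3.37 with standard error 0.28, limma adjusted p = 0.000437). The ratios of Nr4a3 and Nr4a2 lay below those of all but 0.715% and 1.03% of tested genes, whereas 15.1% of genes had a ratio below that of Nr4a1. Nr4a2 has 2 deposited transcripts with different starts, and NM_013613, which starts further downstream, carried 85.9% to 100% of its FPKM. The deposited Nr4a3 transcript is 1884 bases long, which equals the coding length with the stop codon in GENCODE, so its FPKM is a level over the coding part alone.

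**Figure D3:**
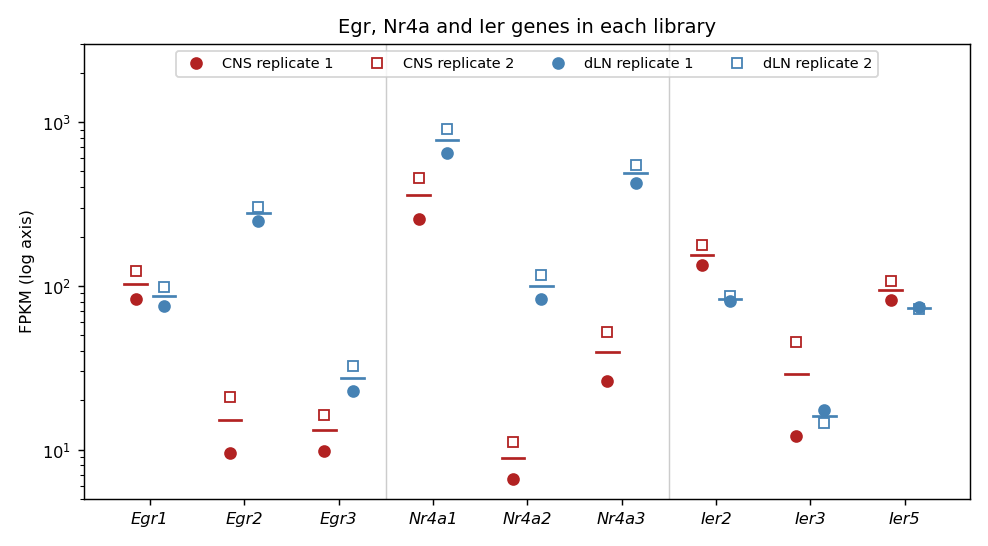
FPKM (log axis) of the 9 genes in each of the 4 libraries, with circles for replicate 1, squares for replicate 2 and short lines for the mean of a tissue. Egr2, Nr4a2 and Nr4a3 show wide gaps between the CNS (red) and dLN (blue) points, and the Egr1 and Ier3 points of the tissues overlap.

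Among the Ier genes, Ier2 was higher in CNS. The CNS libraries read 133 and 178 FPKM and the dLN libraries 80.3 and 86.2 FPKM. Ier2 averaged 155 FPKM in CNS (SD 31.2, n = 2) against 83.2 FPKM in dLN (SD 4.21, n = 2), a 1.87-fold difference with no overlap. Its ratio (log2 0.88 with standard error 0.15, limma adjusted p = 0.00499) was nonetheless close to the 75th percentile of all tested genes, 0.86. Ier5 read 81.5 and 108 FPKM in CNS against 74.5 and 71.8 FPKM in dLN. Both CNS libraries were above both dLN libraries, but the log2 ratio of 0.35 did not pass the test (limma adjusted p = 0.0837, 95% interval -0.035 to 0.74). Without CNS replicate 1 Ier5 was called (0.55, adjusted p = 0.0128), and it was called as well with the same upper quartile in every library (0.49, adjusted p = 0.0241).

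Ier3 depended on the CNS library. CNS replicate 1 read 12.1 FPKM and CNS replicate 2 read 45.6 FPKM, and the dLN libraries lay between them with 17.4 and 14.6 FPKM. The ratio did not pass (log2 0.54 with standard error 0.60, limma adjusted p = 0.445, 95% interval -1.03 to 2.11). Without CNS replicate 1 the ratio was 1.46 (adjusted p = 0.0105), and without CNS replicate 2 it was -0.38 (adjusted p = 0.129). The library with the high Ier3 value was also the one with the high sum of myeloid markers, 440 against 27.9 FPKM, and the part of myeloid cells in the Ier3 value was not tested. The summed level of 8 heat-shock genes also differed between libraries, at 6900 and 8482 FPKM in CNS against 3124 and 3137 FPKM in dLN. Hspa1a and Hspa1b made up most of that difference, with 1367 to 2387 FPKM in CNS and 2.70 to 5.69 FPKM in dLN, although reads of these near-identical copies could be split between them. Of the 8 heat-shock genes 4 were higher and 3 lower in CNS. That is 87.5% called, beside 74.9% of all tested genes, of which 37.8% were higher and 37.2% lower. What part the heat-shock response had in the Ier2 difference was not tested.

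The order of the 9 genes by FPKM differed between the tissues, while the replicates of a tissue gave nearly the same order. In CNS, Nr4a1 was followed by Ier2, Egr1, Ier5, Nr4a3 and Ier3, and Egr3, Egr2 and Nr4a2 were lowest. In dLN, Nr4a1 was followed by Nr4a3, Egr2 and Nr4a2, then by Egr1, Ier2 and Ier5, and Egr3 and Ier3 were lowest. In CNS the ranges of Egr1 and Ier5, of Nr4a3 and Ier3, of Ier3, Egr2 and Egr3, and of Egr2, Egr3 and Nr4a2 overlapped. In dLN those of Nr4a2, Egr1 and Ier2 did. All of these genes were higher in replicate 2, so overlap of ranges does not show that neighbours were level within a library. Within single libraries the order was the same in both replicates, except that Egr2 and Egr3 swapped in CNS and Egr1 and Ier2 in dLN. FPKM is per length, which allows this comparison between genes, with the limit given above for Nr4a3.

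The mix of the Egr and of the Nr4a genes differed between the tissues, which was compared within libraries and so does not depend on their scaling. Egr1 made up 81.1% and 76.8% of the summed FPKM of Egr1, Egr2 and Egr3 in CNS but 21.8% and 22.6% in dLN, where Egr2 made up 71.7% and 70.0%. The share of Egr3 was 9.62% and 10.2% in CNS and 6.53% and 7.39% in dLN, also without overlap. The 3 Egr genes together averaged 131 FPKM in CNS (SD 40.6, n = 2) against 392 FPKM in dLN (SD 62.6, n = 2). Nr4a1 made up 88.7% and 87.8% of the summed Nr4a FPKM in CNS and 56.3% and 57.6% in dLN, and Nr4a3 took 9.04% and 10.1% against 36.6% and 34.9%. Among the Ier genes the share of Ier3 overlapped between tissues, with 5.31% and 13.8% in CNS against 10.1% and 8.46% in dLN. The replicates of a tissue gave nearly the same Nr4a mix although their summed level differed, at 289 and 521 FPKM in CNS and at 1158 and 1572 FPKM in dLN.

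**Figure D4:**
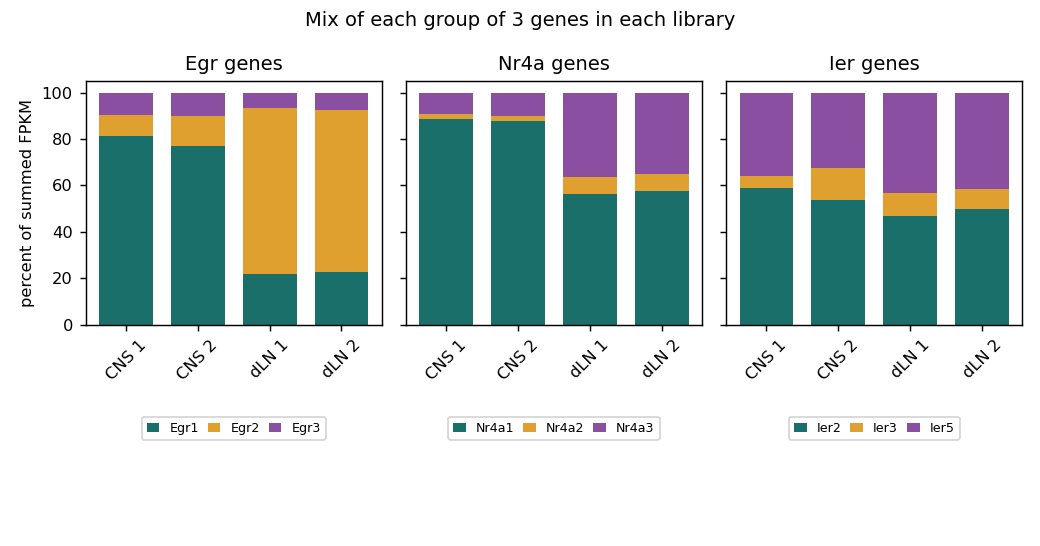
Share of each gene (percent, bars from 0) in the summed FPKM of the 3 Egr, the 3 Nr4a and the 3 Ier genes, in each library. Egr2 (yellow, left) fills 70.0% or more of the dLN bars and at most 13.0% of the CNS bars, and Nr4a3 (purple, middle) 34.9% or more of the dLN bars and at most 10.1% of the CNS bars.

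In pairs, the log2 ratio of Nr4a1 over Nr4a3 was 3.29 and 3.12 in CNS and 0.62 and 0.72 in dLN, a difference of 2.54 between tissues with SDs of 0.12 and 0.072 within them. Nr4a1 over Nr4a2 differed by 2.35 and Egr1 over Egr2 by 4.52. Nr4a2 over Nr4a3 was at -1.99 and -2.23 in CNS and at -2.35 and -2.23 in dLN, a difference of 0.18, so these genes kept nearly the same ratio to each other while both fell by more than 10-fold. Ier2 over Ier5 differed by 0.53, and both pairs with Ier3 overlapped between tissues. In 7 of the 9 pairs the tissues did not overlap, though for Nr4a2 over Nr4a3 the nearest libraries almost met. With 2 libraries against 2, the exact permutation test (two-sided) cannot go below p = 0.333, which these 7 pairs reached (0.429 adjusted over the 9 pairs), and it cannot call any of them. Among single tested genes 89.4% did not overlap between the tissues, and the share over other gene pairs was not computed. Pairs of a family share genes, so the 9 pairs are not independent.

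The nearest relatives outside the list moved as follows. Egr4, the remaining Egr family member, was at 0.172 and 0.0967 FPKM in CNS, about 7 and 4 fragments, and at 4.93 and 7.59 FPKM in dLN, with a log2 ratio of -2.65 (limma adjusted p = 0.000372). Ier5l, a relative of Ier5, was at 2.58 and 4.36 FPKM in CNS and at 0.0393 and 0.132 FPKM in dLN, about 1 and 4 fragments, with a log2 ratio of 2.01 (limma adjusted p = 0.00117). Egr4 thus stood with Egr2 and Egr3, and Ier5l was higher in CNS like Ier2. The corepressors Nab1 and Nab2 bind Egr proteins and limit their activity, and Nab2 is itself an Egr target. Nab2 was at 15.4 and 22.7 FPKM in CNS and at 40.6 and 42.0 FPKM in dLN (log2 ratio -1.10, limma adjusted p = 0.00474). Nab1 went the other way, at 31.4 and 27.0 FPKM in CNS and at 12.9 and 12.5 FPKM in dLN (log2 ratio 1.14, limma adjusted p = 0.000582). Of the retinoid X receptors, which pair with Nr4a1 and Nr4a2, Rxrb was higher in CNS (log2 ratio 0.46, limma adjusted p = 0.0144), Rxra did not pass the test (log2 ratio -0.03) and Rxrg was at most at 0.0313 FPKM.

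Other immediate-early genes went largely the opposite way to Egr2 and the Nr4a genes. In a list of 30 such genes, 18 were higher and 6 lower in CNS and 6 did not pass the test, so that 80.0% were called beside 74.9% of all genes. Their median log2 ratio was 0.99, against -1.03 for the 9 genes. By the highest mean FPKM, Junb, an AP-1 subunit, was at 752 and 1158 FPKM in CNS and at 174 and 184 FPKM in dLN (log2 ratio 2.38). Rgs1, Cd69 and Tnfaip3, which restrain chemokine signalling, tissue egress and NF-κB, had log2 ratios of 0.77, 1.32 and 1.54, and all 4 had a limma adjusted p of at most 0.000625. The range ran from -3.95 for Myc to 4.49 for Jun, which were singled out after their values were seen. On this scale Egr2 lay below Myc, and Nr4a3 and Nr4a2 stood next to Fosl1 and Irf4. The pseudocount limits the place of Fosl1, which had 0 and 3 fragments in CNS against 295 and 442 in dLN, so its order relative to Egr2 is not given by these ratios. Ier2 and Egr1 lay in the middle of the order.

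**Figure D5:**
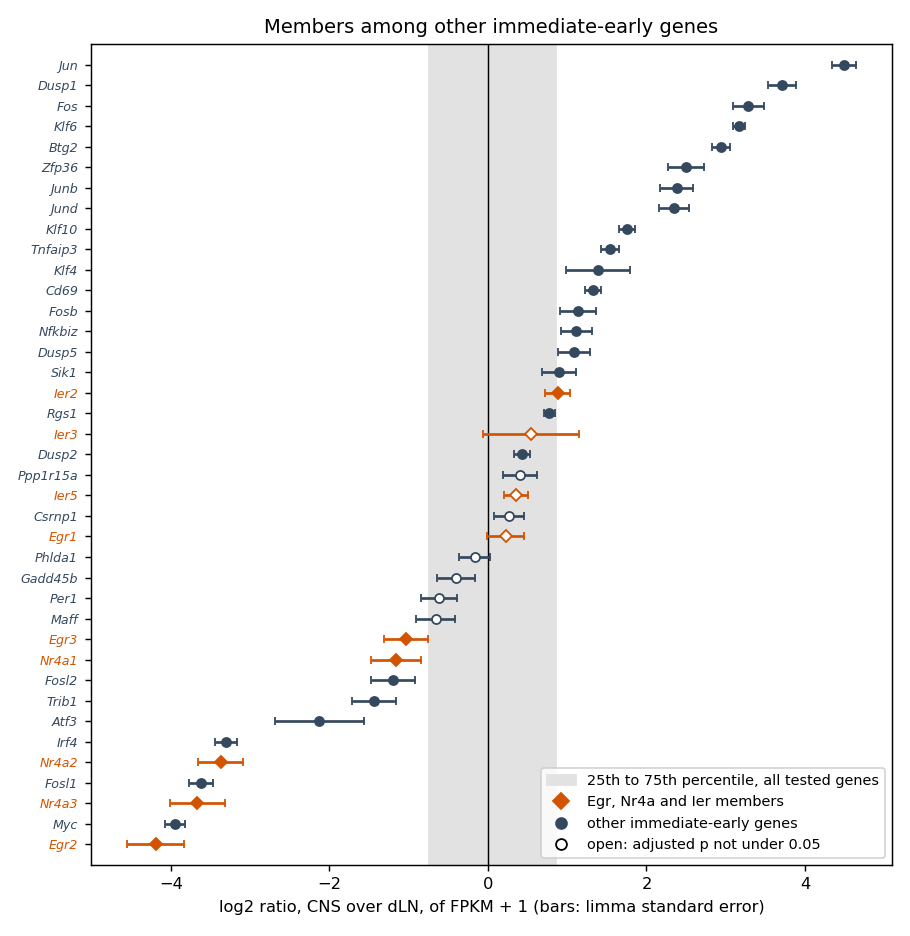
Log2 ratios (CNS over dLN, FPKM + 1, bars give the limma standard error) of the 9 genes (orange diamonds) among 30 other immediate-early genes (dark circles), in order. Open symbols had an adjusted p of 0.05 or more, and the band is the 25th to 75th percentile of all tested genes. On this scale Egr2 stands lowest at -4.19 and Jun highest at 4.49, and the place of Fosl1, which is near 0 in CNS, is limited by the pseudocount.

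The regulators known to act on such promoters showed no common direction. Of 29 tested genes in 3 lists of upstream regulators, 12 were higher and 9 lower in CNS (median log2 ratio 0.10). This is 72.4% called beside 74.9% of all genes, of which 37.8% were higher and 37.2% lower, so the 3 lists together stood near the background. With the same sum of FPKM in every library the split was 9 higher and 12 lower. Srf, the CArG-binding serum response factor, and its partner Elk4 were lower (log2 ratios -0.56 and -0.64, limma adjusted p = 0.0109 and 0.00502), its coactivator Mkl1 was higher (1.15, limma adjusted p = 0.000743) and Elk3 did not pass (0.29). Among CREB and MEF2 factors, of which 6 of 10 were called, the CRE-binding Atf1 and Crem did not pass (log2 ratios -0.17 and -0.09). Mef2d and Hdac7, an activator and a repressor of Nr4a1 in T cells, were lower (log2 ratios -0.53 and -0.90, limma adjusted p = 0.0134 and 0.00159). Among the PKC and ERK kinases 8 of 13 were higher and 3 lower in CNS, which is 84.6% called. Their median log2 ratio was 0.41, and the ratios ran from -1.70 to 3.11. Prkcq, the protein kinase C of the T-cell synapse, was at 70.5 and 65.1 FPKM in CNS and at 37.6 and 33.2 FPKM in dLN (log2 ratio 0.92, limma adjusted p = 0.001). Rps6ka1 and Map2k2 were also higher (log2 ratios 0.80 and 0.41, limma adjusted p = 0.00105 and 0.00853).

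Genes tied to Egr and Nr4a factors in T cells were followed in a pair of lists. Of 10 Egr targets, 3 were higher and 4 lower in CNS (median log2 ratio -0.19, beside 0.05 over all genes). That is 70.0% called, near the 74.9% of all tested genes. Tnfrsf9, a costimulatory receptor, and Ndrg1 fell by 1.57 and 2.70 on the log2 scale, Socs1 fell by 0.39, and Dgkz, which damps diacylglycerol signalling, rose by 0.47 (limma adjusted p between 0.000191 and 0.0397). Without dLN replicate 2, 4 of the 10 were called. All 7 Nr4a-linked genes were called lower (median log2 ratio -1.45), beside 37.2% of all tested genes. They include the inhibitory receptors Ctla4 (log2 ratio -0.41), Pdcd1 (-1.51) and Havcr2 (-1.54) and the regulatory T-cell factor Foxp3 (-1.39), with limma adjusted p between 0.00024 and 0.0077. Regulatory T-cell genes were already known to be lower in these libraries when the list was written, so its direction is no independent evidence, and cells of that type were not separated in the sort.

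By pattern over the 4 libraries, measured as the Euclidean distance of centred log2(FPKM + 1) among 6410 genes that averaged 10 FPKM or more in either tissue, Nr4a1 was nearest to the AP-1 gene Fosl2 (distance 0.143) and to Egr3 (0.173), and Egr3 in turn was nearest to Nr4a1. Egr1 was nearest to Romo1 (0.0819) and to Csrnp1 (0.112), itself an immediate-early gene. Egr2 was nearest to Sult2b1 and Pdzk1ip1, Nr4a2 to Zswim4 and Dnph1, and Nr4a3 to Sema7a and Angptl2, at distances of 0.161 to 0.213. Sema7a was at 8.07 and 18.3 FPKM in CNS and at 155 and 175 FPKM in dLN. Ier2 was nearest to Ecm1 and Zfand2b and Ier5 to Sp2 and Dusp7, at distances of at most 0.0876. Ier3 had no close match beyond Lag3 (0.205), since its second neighbour Xcl1 was at 0.574. With 4 libraries such nearness describes these values alone.

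The 9 genes also differed between libraries of the same tissue. All 9 were higher in CNS replicate 2 than in CNS replicate 1, from 1.32-fold for Ier5 to 2.19-fold for Egr2 and 3.79-fold for Ier3. CNS replicate 2 was also the library with the high sum of myeloid markers, 440 FPKM against 27.9 FPKM in CNS replicate 1. The part of myeloid cells in the CNS values of the 9 genes was not tested. In dLN 7 of the 9 were higher in replicate 2, by 1.07-fold for Ier2 to 1.42-fold for Egr3, and Ier3 and Ier5 were lower. Of all 10634 tested genes, 5771 were higher in replicate 2 in CNS and 3962 in dLN. In both tissues 22.9% were higher in replicate 2, beside 7 of the 9 here. For Egr2, Nr4a2 and Nr4a3 the difference between tissues was larger than that between libraries of a tissue. For Nr4a1, a step of 1.78-fold between the CNS libraries stands beside the 2.18-fold difference between tissues.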

How the data were processed

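RNA of effector CD4 cells was sequenced from 2 CNS and 2 dLN libraries (TruSeq RNA V2, Illumina HiSeq). The deposited values are FPKM of 33819 RefSeq transcripts (mouse mm10), which the authors computed per library from trimmed, mapped reads, with a separate table for each tissue. The aligner and the program behind the FPKM are not given in the sources used here. In the CNS table both library names share a header cell, and the value columns were read in the order of those names. Nothing states that the libraries of a tissue came from separate mice.

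FPKM was summed by gene symbol, and 565 transcripts without one were dropped. Genes averaging 1 FPKM or more in either tissue (10634) were fitted with limma 3.58.1 in R 4.3.3 (log2 of FPKM + 1, eBayes with trend, no covariate besides tissue) and adjusted by Benjamini-Hochberg. The pseudocount understates the change of low genes. Pairs within a family were compared by an exact permutation test. Depth came from the steps of low FPKM in single-transcript genes. The limma fit and the depth estimate were tested on simulated data, and the permutation test on small made-up values. In the limma simulation 39 of 89 changes of 1 on the log2 scale were recovered, and 89 of 111 changes of 2. Promoters came from RefSeq (GRCm38.p6) and gene models from GENCODE M21, both on the assembly of mm10. Other steps ran in Python 3.11.15, with arrays and tables in numpy 2.4.6 and pandas 2.3.3, tests in scipy 1.17.1 and plots in matplotlib 3.10.9.

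Named are the 9 genes, their relatives, corepressors and partners, the 4 genes of each other list with the highest mean FPKM and the 2 genes nearest to each of the 9 in pattern, apart from a gene that is not reported here. The members and all lists were chosen with earlier results of these data known. Alternatives were another pseudocount, 3 scalings, the highest transcript, 2 filters, the replicate number as a block, no trend, a minimum change and each library left out. Those for the Egr and Nr4a target lists were added after the data were seen.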

Additional observations from a re-analysis of the deposited data

How the results depend on the processing

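Of the 9 genes, 6 were called in the main comparison, 1 higher and 5 lower, beside 74.9% of all tested genes. The alternatives that kept all libraries called between 4 and 7. Without a filter 4 of the 9 were called, where 8477 of all 16782 genes were. With the same upper quartile per library 7 were called, 2 higher and 5 lower, where 8037 of all 10634 genes were. Under the settings that kept all libraries, 78 of 81 ratios of the 9 genes had the same direction and the same call. The exceptions were Egr3 (-1.03, limma adjusted p = 0.0699) and Nr4a1 (-1.16, limma adjusted p = 0.0731), which were not called without a filter, where 16782 genes were tested, and Ier5, which was called with the same upper quartile (0.49). The cause was not tested. That scaling shifted the median log2 ratio of all genes by 0.12 and the same sum of FPKM shifted it by -0.17, and no direction of the 9 genes changed under either. Leaving out single libraries, 28 of 36 ratios had the same direction and call, and the log2 ratio lay between -0.055 and 0.50 for Egr1, between -1.37 and -0.70 for Egr3, between -1.58 and -0.75 for Nr4a1, between -0.38 and 1.46 for Ier3 and between 0.15 and 0.55 for Ier5. Egr1 and Ier3 reversed without CNS replicate 2. The difference between tissues in Ier2 over Ier3 lay between -0.42 and 1.08, and in Ier3 over Ier5 between -0.56 and 0.96, and the other pairs kept their sign. Of all genes, 4168 of 7968 calls remained when a 2-fold change was also required. Of the 10 Egr targets, 4 (without dLN replicate 2) to 7 were called with a library left out, and with the same sum of FPKM 1 was higher and 5 lower.

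Libraries carry the numbers 1 and 2 in each tissue, but their replicate differences had a correlation of 0.0933 across genes, and nothing states that a number marks a shared batch, so they count as unpaired. A fit with a replicate block called 7828 genes, and no call of the 9 genes changed. With the block the standard error fell from 0.28 to 0.099 for Egr3 and from 0.32 to 0.12 for Nr4a1. For Ier5 it changed little, from 0.148 to 0.140. With 2 libraries a tissue, tissue, table and sex of the mice follow the same split.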
